A study of Homo sapiens with 24 samples.

Results

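The first of 2 batches of A375 melanoma cells in this study was measured with a 3′ tag method after knockdown of GCDH. It holds 6 of the 24 libraries of the series, 3 that received a GCDH-directed small interfering RNA (siRNA; siGCDH) and 3 that received control siRNA (siControl), chosen by the batch and siRNA named in the sample titles. A375 is an established human melanoma line. Cells were seeded in triplicate wells, transfected and collected 48 hours later, and no other genotype, drug or time point is part of the comparison. The sources used here give neither the number nor the sequences of the siRNAs, and the 3 libraries of a group come from wells, so p-values measure the spread between wells, which may be technical. Libraries were made with the QuantSeq 3′ mRNA-Seq FWD kit of Lexogen and read as 75-nucleotide single ends, whereas the second A375 batch was made with a full-length NEBNext kit. Of 60504 rows in the deposited table, 13669 had a mean of at least 1 TPM (a transcript's length-corrected share of all transcripts, scaled to a fixed total) over the 6 libraries and were tested.

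GCDH encodes glutaryl-CoA dehydrogenase, a mitochondrial flavoprotein that converts glutaryl-CoA to crotonyl-CoA in the breakdown of lysine, hydroxylysine and tryptophan. DHTKD1 acts just upstream of it and makes glutaryl-CoA. NRF2, the product of NFE2L2, is a transcription factor held at low levels by KEAP1 and known for driving antioxidant, glutathione, iron storage and pentose phosphate genes, while ATF4 is translated more when the integrated stress response is active and induces ATF3, DDIT3 (CHOP) and CHAC1. The title of the series places NRF2 between GCDH and melanoma cell survival, and the comparison asks which transcripts changed with the siRNA.

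Before any gene was compared, 5 rows of a ribosomal RNA locus were removed and each library was rescaled to a common total, because these rows held 15.9% to 19.5% of all TPM with siControl and 31.2% to 34.4% with siGCDH. The groups did not overlap in this share (exact two-sided permutation test p = 0.1, the smallest that 3 against 3 allows), and in the second batch it was under 0.1% in every library. Ribosomal RNA carries no regular poly(A) tail. What part the removed rows have in the differences between other genes was not tested beyond the fit with the rows kept, which is given beside the counts. Read totals cannot be had from TPM, so sequencing depth is unknown. Replicates correlated at r = 0.905 to 0.921 over log2 values, against 0.976 to 0.977 in the second batch. As labelled, the cells carried SOX10 (166 to 182 TPM), S100B and MITF, while PMEL, TYR and SLC45A2, pigment genes of the melanocyte, were at 0 in all 6 libraries. Of 11 hepatocyte markers 8 were at 0, including ALB and APOA1, as were 4 of 10 endothelial markers, including CDH5, and 5 of 9 leucocyte markers, including CD3E. The summed endothelial markers were at 1.15 to 2.09 TPM with siControl and 3.79 to 6.05 TPM with siGCDH, without overlap, and the 1 tested member, ROBO4, had 1.41 (adjusted p = 0.110). The summed leucocyte markers were at 349 to 406 TPM with siControl and 377 to 476 TPM with siGCDH, of which the class II antigen gene HLA-DRA held 383 and 415 TPM on average. What part other cells have in the results was not tested. Summed over 9 fibroblast markers the level was 4.43 to 20.4 TPM with siControl and 13.7 to 20.8 TPM with siGCDH, with COL1A2 and COL3A1 at 0 throughout.

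The targeted transcript was near the low end of the range. GCDH was at 8.31, 5.66 and 2.10 TPM in the siControl libraries and at 2.18, 1.43 and 0.466 TPM in the siGCDH libraries. The lowest control lay just under the highest knockdown library after rescaling, whereas on the deposited scale the groups were apart, at 1.77 to 6.69 against 0.31 to 1.5 TPM. The mean with siGCDH was 25.4% of siControl. The log2 fold change of -1.36 ± 0.52 (SE) did not pass in limma (adjusted p = 0.196), and the exact permutation test gave p = 0.2 after rescaling and 0.1 as deposited. In the second batch GCDH was at 20.9 ± 1.71 TPM with siControl and 3.72 ± 0.269 TPM with siGCDH (SD, n = 3), a log2 fold change of -2.21, and the effects of the batches did not differ by the interaction test (0.85 ± 0.53, adjusted p = 0.487).

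Across all genes, 269 were higher and 219 lower with siGCDH, which is 3.57% of the genes tested (1.97% higher and 1.6% lower). Genes whose 3 knockdown values lay entirely above or below the 3 controls made up 26.7% of those tested. Most calls were of moderate size: 146 rises and 127 falls were at least 1 on the log2 scale, and 26 and 27 at least 2. Calls depended on level, with 108 higher and 90 lower among 1266 genes of at least 100 TPM, where the median standard error was 0.13, but 18 and 13 among 4715 genes of 1 to 5 TPM, where it was 0.52. Protein-coding genes gave 219 rises and 198 falls. The balance of direction rested on the scaling: higher genes were 55.1% of the calls here, 42.1% when libraries were aligned on their medians, and 14.9% with the ribosomal RNA rows kept, which moved the median change of all genes from 0.07 to -0.20.

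**Figure D1:**
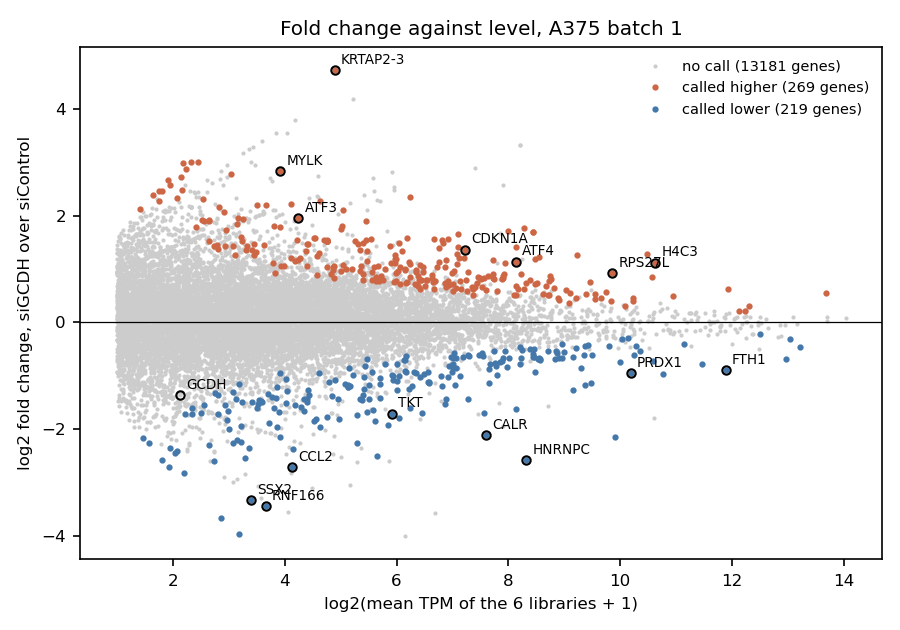
Each point is 1 of 13669 genes of A375 batch 1, with the log2 of its mean TPM over 6 libraries plus 1 on the x axis and the log2 fold change of siGCDH over siControl on the y axis; orange and blue points passed an adjusted p of 0.05. The 269 higher and 219 lower genes narrow towards 0 as the level rises, and GCDH at -1.36 lies among grey points of low level.

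The transcript of NRF2 rose, while 6 of the genes it is known to drive fell. NFE2L2 was at 106, 97.0 and 114 TPM with siControl and at 168, 231 and 214 TPM with siGCDH. Every knockdown library exceeded every control, and the log2 fold change was 0.94 ± 0.15 (adjusted p = 0.0217). No other of the 12 genes that make up or regulate NRF2 passed by limma (8.33% called, against 3.57% of all genes). Among them were KEAP1, the adaptor that marks NRF2 for degradation (0.34, adjusted p = 0.240), and SQSTM1, an autophagy receptor that binds KEAP1 (-0.28, adjusted p = 0.197). NFE2L1, named here after its value was seen, had 0.97 (adjusted p = 0.0597). With NFE2L2 counted, 6 of the 12 had an unadjusted p under 0.05. The call of NFE2L2 held in 1 of 6 fits that left out a library, where its adjusted p ran from 0.0367 to 0.0768.

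Among the 38 NRF2 targets that were tested there were 0 rises and 6 falls. The falls were 15.8% of the list, against 1.6% lower among all genes tested and 7.11% lower among genes of at least 100 TPM. Of the 38, 30 had a change below 0, with a median of -0.33 against 0.07 for all genes tested. PRDX1, a peroxiredoxin that reduces peroxides, was at 1505, 1556 and 1544 TPM with siControl and at 803, 773 and 806 TPM with siGCDH. The controls and the knockdown libraries each fell within a narrow range, and the change was -0.95 ± 0.06 (adjusted p = 0.00133). FTH1, the heavy chain of the iron store ferritin, went from 4651, 5047 and 5064 to 2470, 2880 and 2563 TPM (-0.90 ± 0.07, adjusted p = 0.00155). Its partner FTL lay at 1405 to 1523 TPM with siControl and at 926 to 980 TPM with siGCDH (-0.61). Both ferritin genes have many processed copies, among which reads can be divided. TKT, transketolase of the pentose phosphate pathway, was at 96.7, 79.5 and 97.7 TPM with siControl and at 29.2, 28.1 and 24.2 TPM with siGCDH. No library of either group came near the other, and TKT changed by -1.71 ± 0.16 (adjusted p = 0.00383). PIR, an iron-binding nuclear protein named here after its values were seen, fell by 1.61. Among members that did not pass were the abundant GSTP1, a glutathione transferase (-0.27, adjusted p = 0.103), and TXN, thioredoxin (-0.50, adjusted p = 0.225), and SLC7A11, the cystine transporter, had -1.09 (adjusted p = 0.0665). PRDX1, FTH1, TKT and FTL were called whichever library was left out. The count of falls was 4 or 5 in the fits that left out a library and 14 with the ribosomal RNA rows kept.

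The lists of iron and pentose phosphate genes share members with the NRF2 targets, among them FTH1, FTL and TKT. Of 15 iron handling and ferroptosis genes 0 rose and 3 fell, FTH1, FTL and TFRC, the transferrin receptor that takes up iron, which changed by -1.43 ± 0.25 (adjusted p = 0.0284) and was called in no fit that left out a library. Its values of 24.5 to 36.1 TPM with siControl lay above those of 8.46 to 12.4 TPM with siGCDH. Of 9 pentose phosphate genes 0 rose and 3 fell, among them TKT and RPIA, ribose 5-phosphate isomerase (-1.60 ± 0.32, adjusted p = 0.0438). The shares called were 20% and 33.3%, against 3.57% of all genes tested and 15.6% of genes of at least 100 TPM, and the medians were -0.44 and -0.34. TALDO1, transaldolase of the same pathway, had -0.24 and did not pass.

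In lysine and tryptophan breakdown, the pathway of GCDH, 0 of 20 tested genes rose and 2 fell (10% called, against 3.57% of all genes). ALDH7A1, the dehydrogenase that oxidises aminoadipate semialdehyde in lysine breakdown, was at 103, 95.0 and 115 TPM with siControl and at 44.1, 36.6 and 49.4 TPM with siGCDH. The knockdown libraries lay below every control, with a change of -1.25 ± 0.16 (adjusted p = 0.0128). ETFA, a subunit of the flavoprotein that accepts electrons from GCDH and other mitochondrial dehydrogenases, fell by 0.83 ± 0.14 (adjusted p = 0.0257), whereas its partner ETFB had -0.13 (adjusted p = 0.618). When a library was left out, ALDH7A1 was called in 6 of 6 fits and ETFA in 1. DHTKD1 was at 9.12, 12.3 and 16.0 TPM with siControl and at 11.8, 8.87 and 12.5 TPM with siGCDH, so the groups overlapped (-0.14 ± 0.27, adjusted p = 0.820). Of the list's 25 genes 5 did not reach a mean of 1 TPM.

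**Figure D2:**
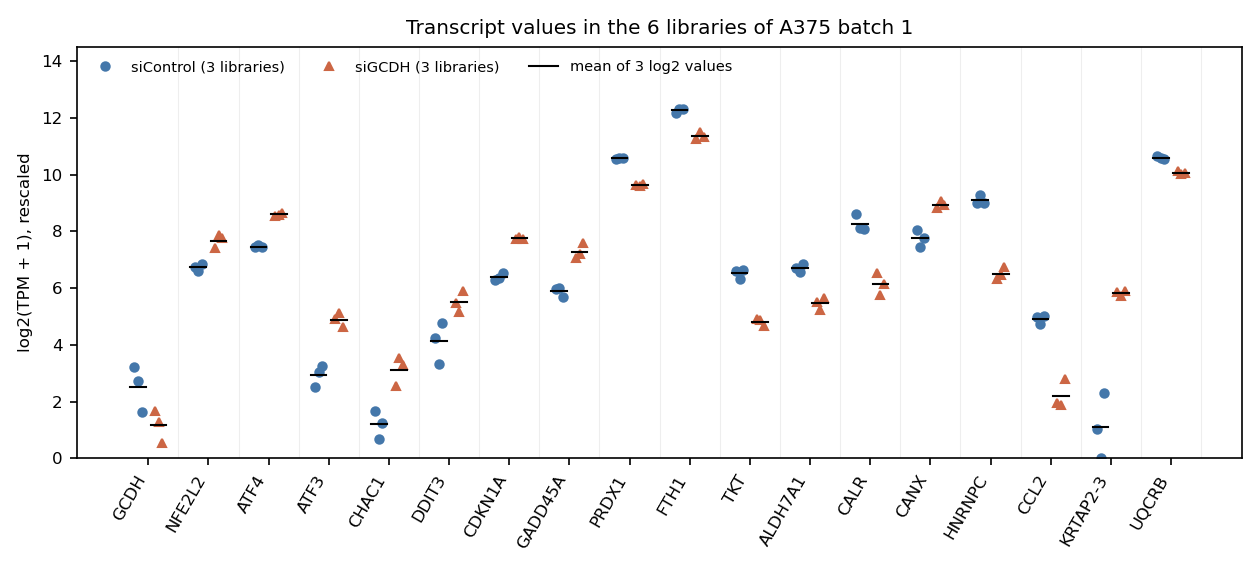
Each symbol is 1 library of A375 batch 1 (circles, siControl; triangles, siGCDH; 3 each), with log2(TPM + 1) after rescaling on the y axis and a bar at the mean of the 3 log2 values. ATF4, CDKN1A and KRTAP2-3 sit higher and PRDX1, FTH1, TKT, CALR and HNRNPC lower with siGCDH without overlap, while the GCDH groups overlap slightly, at 2.10 and 2.18 TPM.

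Transcripts of ATF4 and of several of its targets were higher. ATF4 was at 172, 181 and 173 TPM with siControl and at 374, 382 and 405 TPM with siGCDH. Every control lay far below the knockdown libraries, a change of 1.14 ± 0.09 (adjusted p = 0.0019) that was called whichever library was left out. ATF3, a stress-induced transcription factor, went from 4.77, 7.22 and 8.66 to 28.9, 33.95 and 24.0 TPM (1.95 ± 0.27, adjusted p = 0.0144). CHAC1, a glutathione-degrading enzyme, was at 2.15, 0.618 and 1.38 TPM with siControl and at 4.87, 10.7 and 8.68 TPM with siGCDH. Its groups did not overlap, but its change of 1.92 ± 0.41 passed narrowly (adjusted p = 0.0497) and in no fit that left out a library. DDIT3, the pro-apoptotic factor CHOP, had 43.9, 34.7 and 58.1 TPM with siGCDH against 18.1, 9.13 and 26.0 TPM, and its change of 1.39 ± 0.37 did not pass (adjusted p = 0.0863). TRIB3, a pseudokinase that restrains ATF4, was at 9.39 to 13.7 TPM with siControl and 13.6 to 13.8 TPM with siGCDH (0.22, adjusted p = 0.618).

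Over the whole list, 6 of 37 tested ATF4 targets rose and 0 fell (16.2% called, against 3.57% of all genes). Besides ATF4, ATF3 and CHAC1 these were SESN2, a stress-induced inhibitor of mTORC1 signalling (1.53 ± 0.21), PPP1R15A, the GADD34 subunit of the phosphatase that acts on eIF2α (1.46 ± 0.23), and SARS1, seryl-tRNA synthetase (0.67 ± 0.12). The amino acid transporter subunit SLC3A2 had -0.32 (adjusted p = 0.167). The median of the list was 0.22, with 29 changes above 0 and 8 below, but -0.06 with the ribosomal RNA rows kept, when 5 rose and 3 fell. The fits that left out a library kept 1 to 4 of the 6 rises. In the second batch, where 17.9% of all genes tested were higher and 15.7% lower, 20 of the 37 rose and 5 fell.

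Promoters bear on this group because ATF4, paired with C/EBP proteins, binds a composite element whose core is TGATGNAA. RefSeq promoters (GRCh38.p14, from 250 bases before to 50 after each gene's start) were searched for these letters on both strands, and 33 of the list's genes had a promoter in the table. The core was present in 11 of the 33 genes (33.3%), against 3.62% of all 35116 promoters and 2.75% of 9639 genes tested in batch 1 that had a promoter. The share in the list describes how its members were chosen and uses no change measured here. Of the 6 called genes 2 held the core, ATF3 and CHAC1, which had the largest called rises of the list. This is 33.3%, the same share as in the whole list. Their promoters are shown with the match in capitals. In ATF3 (chr1:212565157-212565456, plus strand) it starts 191 bases before the gene's start, in the direction of the gene. In CHAC1 (chr15:40953221-40953520, plus strand) it starts 209 bases before the start and reads on the opposite strand. ASNS, asparagine synthetase, also held a match and had a change of 0.74 that did not pass (adjusted p = 0.107). The other tested holders did not pass either, at 0.30 (SLC1A5), 0.26 (GARS1), 0.19 (AARS1), 0.16 (SLC1A4), -0.01 (CEBPG), -0.12 (SLC7A1) and -0.32 (SLC3A2).
ATF3: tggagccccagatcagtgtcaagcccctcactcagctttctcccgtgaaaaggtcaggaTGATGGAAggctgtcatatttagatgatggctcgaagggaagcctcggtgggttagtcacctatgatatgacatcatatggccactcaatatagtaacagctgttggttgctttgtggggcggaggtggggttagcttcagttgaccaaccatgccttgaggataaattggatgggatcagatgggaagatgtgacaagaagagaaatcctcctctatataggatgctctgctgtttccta
CHAC1: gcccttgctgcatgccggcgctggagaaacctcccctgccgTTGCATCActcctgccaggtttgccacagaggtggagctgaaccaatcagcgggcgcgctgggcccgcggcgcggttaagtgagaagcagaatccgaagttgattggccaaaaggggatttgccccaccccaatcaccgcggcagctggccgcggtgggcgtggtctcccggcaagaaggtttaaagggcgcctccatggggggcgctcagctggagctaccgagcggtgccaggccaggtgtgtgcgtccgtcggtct

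Among ER chaperones the lectins calreticulin and calnexin, which hold newly made glycoproteins, moved apart. CALR was at 391, 276 and 272 TPM with siControl and at 92.6, 53.4 and 70.1 TPM with siGCDH (-2.12 ± 0.23, adjusted p = 0.0076). CANX was at 264, 175 and 215 TPM with siControl and at 452, 530 and 486 TPM with siGCDH (1.18 ± 0.15, adjusted p = 0.0128). Neither gene's groups overlapped. HSP90B1, the HSP90 of the ER, rose by 0.44, and HSPA5, the ER chaperone BiP, had 0.41 (adjusted p = 0.0668). When a library was left out, CALR was called in 6 of 6 fits, CANX in 5 and HSP90B1 in 0. In all, 2 of 27 genes of the unfolded protein response rose and 1 fell (11.1% called, against 3.57% of all genes).

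Of 28 tested targets of p53, the DNA damage-activated tumour suppressor, 9 rose (32.1%, against 1.97% of all genes) and 0 fell, with 26 of 28 changes above 0. Their median was 0.79, and 0.71, 0.73 and 0.49 with median scaling, quantile normalization and the ribosomal RNA rows kept. CDKN1A, the cyclin-dependent kinase inhibitor p21, was at 76.5, 80.6 and 91.7 TPM with siControl and at 210, 222 and 211 TPM with siGCDH. The knockdown libraries stood above every control by a wide gap, at 1.36 ± 0.12 (adjusted p = 0.00303). GADD45A, a DNA damage-inducible stress protein, went from 62.2, 62.5 and 50.7 to 134, 146 and 191 TPM (1.40 ± 0.17). RPS27L, a p53-induced relative of ribosomal protein S27, went from 659, 642 and 622 to 1261, 1147 and 1241 TPM (0.92 ± 0.07, adjusted p = 0.0015). BBC3, which encodes the BH3-only protein PUMA, rose by 1.19 and SESN2 as given for ATF4. The others, named after their values were seen, were BTG2 (1.46), XPC (0.92), MDM2 (0.80), the ubiquitin ligase of p53, and TRIAP1 (0.78). In the second batch 23 of the 28 rose and 0 fell. CDKN1A, GADD45A and RPS27L were called whichever library was left out, and the list kept 3 to 5 calls in those fits.

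Genes of apoptosis and division were called at shares of 0 to 4.76%, near or under the 3.57% of all genes. Of 21 pro-apoptotic genes 1 rose, BBC3, and none of 11 anti-apoptotic genes passed by limma (1 at an unadjusted p under 0.05), MCL1 having 0.51 (adjusted p = 0.107) and BIRC5, survivin, -0.44 (adjusted p = 0.344). Of 31 replication genes 1 fell, RRM2, the small subunit of ribonucleotide reductase (-1.02 ± 0.20, adjusted p = 0.0372). RRM2 was called in no fit that left out a library. None of 29 mitosis genes passed by limma (7 at an unadjusted p under 0.05), with PTTG1, securin, at -0.36 (adjusted p = 0.0609).

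Of 57 nuclear-encoded subunits of the respiratory chain, which passes electrons from NADH and succinate to oxygen, 0 rose and 9 fell (15.8% called, against 3.57% of all genes), 47 changes were below 0, and the median was -0.22. Calls were more frequent at high levels: among members of at least 100 TPM 7 of 47 were called (14.9%), all lower, against 198 of 1266 genes of that level (15.6%), of which 90 were lower (7.11%). UQCRB, a subunit of complex III, was at 1615, 1555 and 1497 TPM with siControl and at 1109, 1038 and 1077 TPM with siGCDH. The controls did not approach the knockdown libraries, and the change was -0.53 ± 0.06 (adjusted p = 0.00863). ATP5MC3, a ring subunit of ATP synthase, fell by 0.55, and SDHC, a membrane anchor of complex II, by 0.62. The abundant ATP5MG (-0.22) and UQCRQ (-0.20) did not pass. The number of falls depended on the scaling and the libraries: it was 33 of 57 with the ribosomal RNA rows kept, and 1 to 3 in the fits that left out a library. All 78 mitochondrial ribosomal proteins were tested, and 0 rose and 5 fell (6.41% called), from MRPL51 (-0.65) to MRPL39 (-1.59), of which 0 to 3 were called when a library was left out.

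The 13 coding genes of the mitochondrial genome held 4.01 ± 0.464% of TPM with siControl and 3.21 ± 0.268% with siGCDH (SD, n = 3 libraries each), without overlap (exact two-sided permutation p = 0.1, the smallest possible). All transcripts of that genome together held 5.39 ± 0.512% and 5.26 ± 0.370% (SD, n = 3; exact permutation p = 0.7). Of the 13, 0 rose and 2 fell (15.4% called, against 3.57% of all genes and 15.6% of genes of at least 100 TPM). Their median was -0.40, and 0 or 1 was called when a library was left out. MT-ND3, a complex I subunit, was at 11005, 12314 and 9613 TPM with siControl and at 8533, 7780 and 7632 TPM with siGCDH (-0.45 ± 0.09, adjusted p = 0.0379). MT-ND4L fell by 0.40. MT-ND2 had 0.11 and MT-CO1, named after its value was seen, 0.08, neither past the test.

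Lipid synthesis and glycolysis were called at 3.33% and 3.23%, near the 3.57% of all genes, and MAPK output and heat shock at 13.6% and 15%. SCD, the stearoyl-CoA desaturase that makes monounsaturated fatty acids, was at 58.0, 59.5 and 62.2 TPM with siControl and at 21.3, 27.5 and 19.8 TPM with siGCDH (-1.36 ± 0.18, adjusted p = 0.0128), the only call among 30 genes of cholesterol and fatty acid synthesis. ALDOA, the glycolytic aldolase, fell by 0.62 as the single call among 31 glycolysis and hypoxia genes. Of 22 genes of MAPK output, the pathway that mutant BRAF drives in melanoma, 2 rose and 1 fell. CCND1, cyclin D1, went from 81.5, 91.3 and 93.3 to 190, 236 and 193 TPM (1.21 ± 0.13, adjusted p = 0.00777), and EGR1 rose by 1.57 while IER3 fell by 0.62. Of 20 heat shock genes HSPH1 (0.77) and HSP90AA1 (0.45) rose and HSPA8 fell by 0.43. When a library was left out, MAPK output kept 1 or 2 of its 3 calls. ALDOA, IER3 and HSPA8 were called in none of those 6 fits, EGR1 and HSP90AA1 in 1, HSPH1 in 4, SCD in 5 and CCND1 in 6. In autophagy ATG12, a ubiquitin-like protein of autophagosome growth, rose by 1.40 ± 0.16 and GABARAPL1 by 0.96, out of 34 genes with no fall (5.88% called). ATG12 was called in 6 of 6 fits that left out a library and GABARAPL1 in 0.

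Secreted and matrix genes changed in both directions. CCL2, a monocyte-attracting chemokine, was at 30.8, 25.8 and 31.2 TPM with siControl and at 2.85, 2.68 and 5.95 TPM with siGCDH. The highest knockdown library was far below the lowest control (-2.71 ± 0.30, adjusted p = 0.00786). SERPINA3, an acute-phase protease inhibitor, fell by 1.69 ± 0.18, whereas the cytokines IL24 and IL11 rose by 0.83 and 1.47. Thus 2 of 23 NF-kB targets, chemokines and cytokines rose and 2 fell (17.4% called, against 3.57% of all genes). None of 27 interferon-stimulated genes passed by limma, with ISG20 at 0.73 (adjusted p = 0.111) and IFI6 at -0.85 (adjusted p = 0.0524), and 4 of the 27 had an unadjusted p under 0.05. Of 31 matrix, integrin and adhesion genes 4 rose, SPARC, a collagen-binding matrix protein (0.91), the hyaluronan receptor CD44 (0.84), TIMP1 (0.64) and LAMC1, and 1 fell, TIMP3 (-0.73). This list was called at 16.1%.

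Of 18 invasive melanoma genes 3 rose, AXL, a receptor tyrosine kinase (0.77 ± 0.13), CD44, and ANKRD1, a target of YAP signalling (1.85 ± 0.29), and 0 fell. When a library was left out 0 or 1 of these was called, and AXL and ANKRD1 in none of those fits. ANKRD1 was at 2.04, 3.52 and 3.09 TPM with siControl and at 10.2, 13.4 and 15.3 TPM with siGCDH. The list was called at 16.7%, against 3.57% of all genes, and its median was 0.33, but -0.13 with the ribosomal RNA rows kept. None of 11 melanocyte lineage genes passed by limma (1 at an unadjusted p under 0.05). MITF, the master regulator of that lineage, had 18.6, 21.2 and 18.9 TPM with siGCDH against 16.2, 10.3 and 14.0 TPM (0.52 ± 0.23, adjusted p = 0.249), and SOX10 had -0.08. Of 8 tested epithelial markers 4 had changes above 0 and 4 below, with a median of 0.33. The keratins KRT18 and KRT8 fell by 0.95 and 1.55, each called in 1 of 6 fits that left out a library, and KRT14 had 1.11 (adjusted p = 0.232). Summed over 14 epithelial markers the level was 146.6 to 162.5 TPM with siControl and 87.4 to 116.7 TPM with siGCDH.

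Ribosomal proteins were called at 11%, proteasome genes at 13.5%, hnRNP and SR proteins at 13.8% and aminoacyl-tRNA synthetases at 20%, against 3.57% of all genes and 15.6% of genes of at least 100 TPM. HNRNPC, an RNA-binding protein of nascent transcripts, was at 509, 616 and 516 TPM with siControl and at 78.2, 87.5 and 107 TPM with siGCDH. The knockdown libraries were far below every control (-2.58 ± 0.14, adjusted p = 0.00133), and the second batch gave -2.71. Of 29 hnRNP and SR proteins 2 rose and 2 fell. Among 37 proteasome genes PSMD14 (1.29), PSMD2 (0.97) and PSMC1 rose and PSMA5 (-1.20) and PSMB3 (-0.78) fell. Of 20 cytosolic aminoacyl-tRNA synthetases 3 rose and KARS1, for lysine, fell by 0.98 ± 0.12 from 310, 273 and 298 to 156, 129 and 160 TPM. Of 82 ribosomal proteins 3 rose and 6 fell, with a median of 0.00 and RPS28 at -0.68, and RSEM can move reads between such genes and their processed copies. Of 31 histone genes without regular poly(A) tails 24 had changes above 0, against 7519 of all 13669 genes. Only 1 was called (3.23%, near the 3.57% of all genes). This was H4C3, from 1032, 1046 and 917 to 2260, 2237 and 2006 TPM (1.12 ± 0.08, adjusted p = 0.00147). In the second batch H4C3 was at 0 to 0.72 TPM and was not tested.

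**Figure D3:**
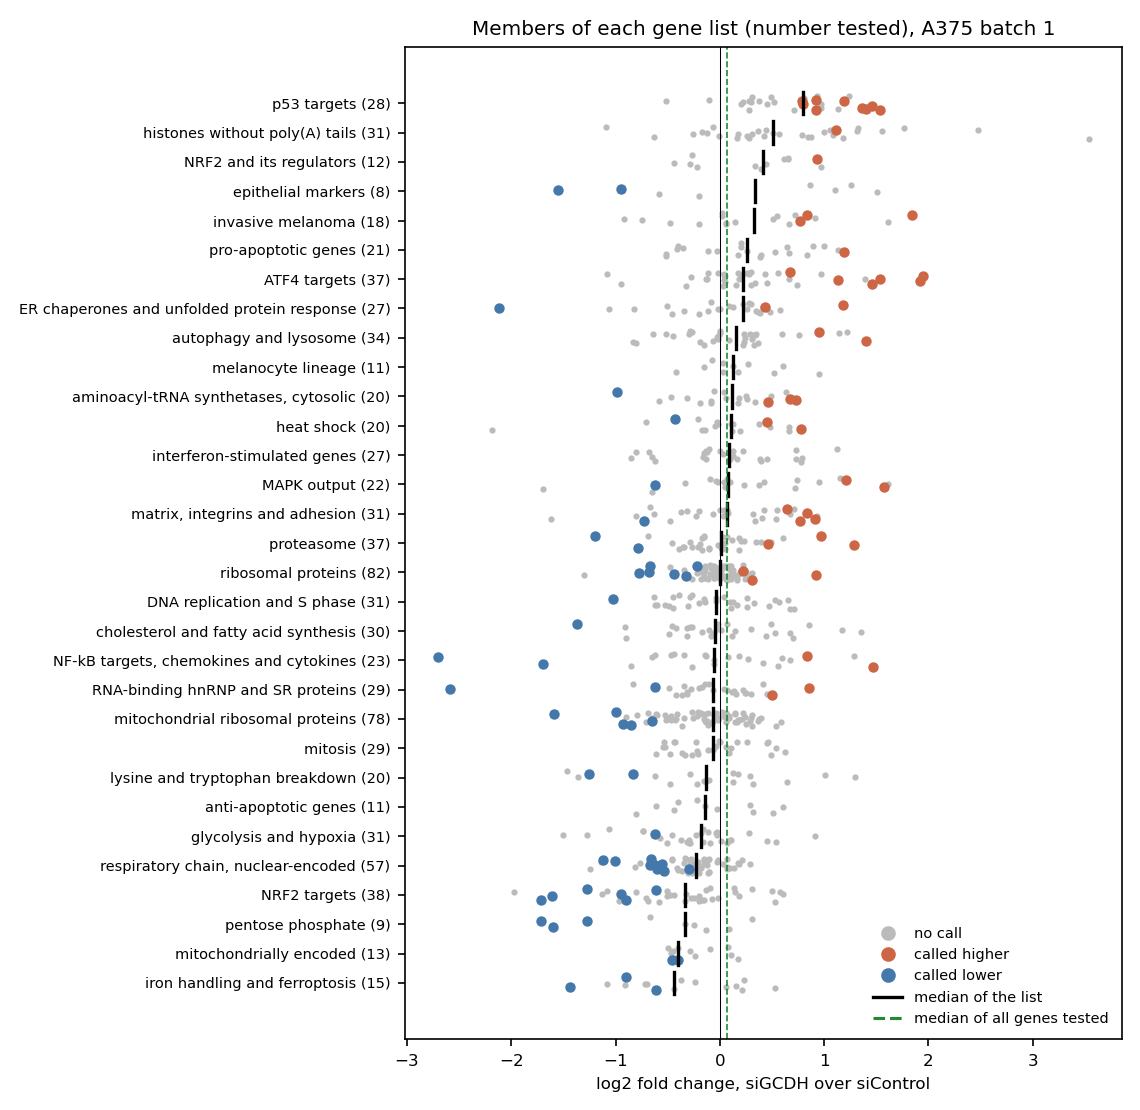
Each point is a tested member of 1 of the gene lists with at least 5 tested genes, placed by its log2 fold change of siGCDH over siControl in A375 batch 1; orange and blue points were called higher and lower, a black bar marks each list's median and the dashed line the median of all genes tested (0.07). The p53 targets, with a median of 0.79, are at the top, and iron handling, with -0.44, at the bottom.

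The largest rises were mostly of genes near 0 in the controls. KRTAP2-3, a keratin-associated protein of hair, was at 1.04, 0 and 3.91 TPM with siControl and at 57.0, 51.9 and 59.0 TPM with siGCDH (4.72 ± 0.52, adjusted p = 0.00786), and was called whichever library was left out. It has a near-identical neighbour, KRTAP2-4, with which reads can be shared. MYLK, a kinase of the myosin light chain, went from 6.52, 0.975 and 2.18 to 21.8, 21.4 and 32.0 TPM (2.83). SLC14A1, a urea transporter, went from 6.31, 3.04 and 6.29 to 19.98, 34.2 and 28.2 TPM (2.21). WFDC3 (2.78), the primate-specific POTEE (2.72), ZNG1F (2.49) and ZNF544 (2.35) followed, of which POTEE and ZNG1F have near-identical relatives among which reads can be split. Long non-coding RNAs made up 5 of the 12, LINC00702 (2.86), PURPL, which is known to be induced by p53 and to restrain it (2.31), LINC01060 (2.28), LINC00973 (2.20) and LINC00520. LINC00520 is listed at 0 in all 3 control libraries and at 2.77, 3.84 and 10.6 TPM with siGCDH. Of the 6 fits that left out a library, WFDC3 and LINC00520 were called in 0 and MYLK, ZNG1F, ZNF544 and PURPL in 1. LINC00702 and POTEE were called in 3 of them, LINC01060 and SLC14A1 in 4 and LINC00973 in 6.

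The largest falls included genes that left the measured range. RNF166, a ubiquitin ligase, was at 27.8, 14.6 and 23.5 TPM with siControl and at 0.581, 0.335 and 3.02 TPM with siGCDH (-3.45 ± 0.47, adjusted p = 0.0145). SSX2, a cancer-testis antigen with near-identical copies, was at 31.0, 14.7 and 8.75 TPM against 2.005, 0.289 and 0.241 TPM (-3.33). TAC1, the precursor of substance P, was at 8.32, 6.22 and 6.53 TPM against 0.421, 0 and 0 TPM (-2.83). BEND5 is listed at 0 in all 3 siGCDH libraries and at 4.76, 5.81 and 4.47 TPM in the controls. TK2, the mitochondrial thymidine kinase (-2.54), CRTC2, a CREB coactivator (-2.59), ATXN2L, a stress granule protein (-2.50), NGLY1, the cytosolic enzyme that strips glycans from misfolded proteins (-2.37), C7orf25 (-2.45) and the antisense RNA ARSD-AS1 (-2.42) completed the 12 with CCL2 and HNRNPC. The sources used here do not state whether counting used strand, so ARSD-AS1 and its sense partner may share reads. ATXN2L was at 4.57 TPM in siGCDH replicate 2 against 18.8 and 26.5 TPM in the other two, and without that replicate its change was -1.81. Of the 6 fits that left out a library, CRTC2, BEND5, C7orf25 and ARSD-AS1 were called in 0 and TK2, ATXN2L and NGLY1 in 1. SSX2 was called in 2 of them, RNF166 and TAC1 in 3, and CCL2 and HNRNPC in 6.

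Many of these changes recurred in the second A375 batch and some did not. Of 448 genes called in batch 1 and tested in both, 406 (90.6%) had the same sign, against 66.6% of all 12463 genes tested in both. In batch 2, 317 (70.8%) were called in the same direction, against 29.9% of the 12463, and 16 were called in the opposite direction. Of all genes tested in batch 2, 33.6% were called. Over the 448 genes, chosen by their change in batch 1, the changes correlated at Pearson r = 0.78 and Spearman rho = 0.82. Within those called higher the values were 0.55 and 0.51, and within those called lower 0.35 and 0.41. Over all 12463 genes tested in both they were 0.47 and 0.47, all as descriptions across genes, which are not independent replicates. The wells of the batches share no library. KRTAP2-3 had 4.72 in batch 1 and 3.98 in batch 2, CCL2 -2.71 and -2.28, CALR -2.12 and -2.03, CDKN1A 1.36 and 1.58, ATF4 1.14 and 0.91, TKT -1.71 and -2.21, and FTH1 -0.90 and -0.97. NFE2L2 had 0.94 and 0.35, a difference that did not pass (0.59, adjusted p = 0.102).

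The interaction of siRNA and batch passed for 176 of 12463 genes (1.41%), 110 (0.883%) with a more positive and 66 (0.53%) with a more negative change in batch 1. Because the kit changed with the batch, the kit and the batch cannot be told apart in these differences. RNF166 had -3.45 in batch 1 and -0.05 in batch 2 (difference -3.39, adjusted p = 0.0142), and CRTC2 had -2.59 and 0.29. Of the 5 called proteasome genes 4 were among them: PSMD14 had 1.29 and 0.23 (difference 1.06, adjusted p = 0.0027), PSMD2 0.97 and 0.16, PSMA5 -1.20 and -0.22, and PSMB3 -0.78 and -0.01. CCND1 had 1.21 and 0.44 (difference 0.77, adjusted p = 0.0186). MT-ND3 was lower in batch 1 and higher in batch 2, at -0.45 and 0.16 (difference -0.61, adjusted p = 0.0209).

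**Figure D4:**
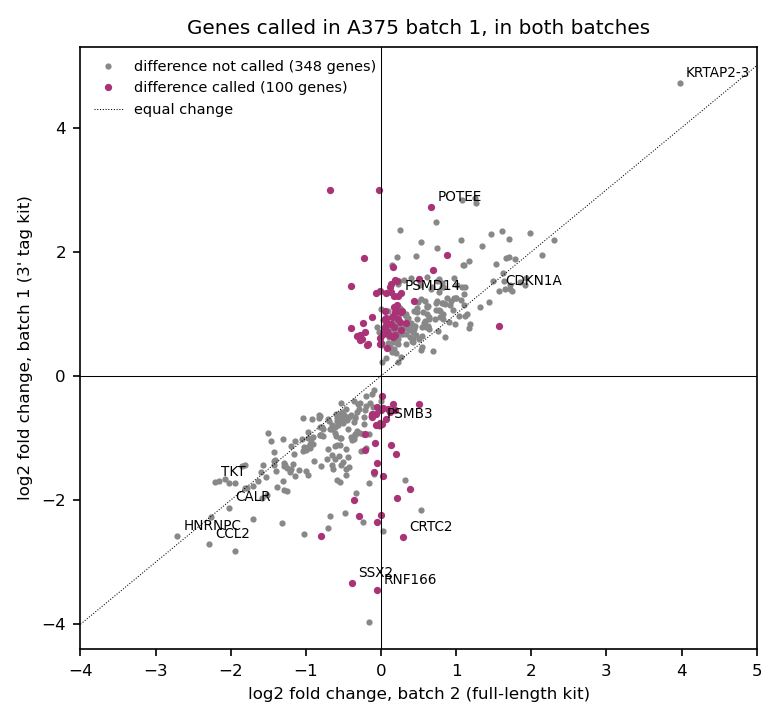
Each point is 1 of 448 genes called in A375 batch 1 and tested in both batches, with the log2 fold change in batch 2 on the x axis and in batch 1 on the y axis; purple points (100 genes) had a called difference between the batches and the dotted line marks equal change. KRTAP2-3, HNRNPC, CALR and TKT lie near the line, while RNF166, SSX2, CRTC2, PSMD14 and PSMB3 lie near 0 in batch 2.

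Messenger RNAs that hold the heptamer ACTGAGA in their 3′ UTR were described apart, since an siRNA strand can lower transcripts that match its bases 2 to 8 and this heptamer had marked the falls of the second batch in an earlier search. The siRNA sequence was not at hand, so a match is a description and not a site. Among 7908 genes of at least 5 TPM with an annotated 3′ UTR (the longest of GENCODE 29 per gene), 1093 held it, of which 39 were lower (3.57%) and 26 higher (2.38%). Of the 6815 without it, 148 were lower (2.17%) and 186 higher (2.73%). The holders had much longer 3′ UTRs, with medians of 3221 against 1123 nucleotides. With genes split by 3′ UTR length into 3 equal classes, in the shortest class 8 of 80 holders (10%) and 82 of 2557 others (3.21%) were lower, with medians of -0.26 and -0.03. In the longest class these shares were 2.64% and 1.06%, with medians of 0.07 and 0.18. In the second batch, for which the heptamer was chosen, 34.8% of holders and 19.1% of the others were lower. By the median change of its holders in batch 1 the heptamer ranked 20 from the lowest of 12440 heptamers held by at least 200 genes. The median of its holders was itself above 0, at 0.012, against 0.064 for genes without it and -0.034 for the heptamer ranked lowest. Neither this rank nor the shares in batch 1 are independent of the choice in batch 2, because the changes of the batches correlate over genes (Pearson r = 0.47).

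Among called falls the holders included genes of the lists above, CALR, TKT, TFRC and PRDX1, and, chosen after their values were seen as the largest others, DDOST, a subunit of the oligosaccharyltransferase, LITAF, an endosomal membrane protein, and AHCY, the hydrolase of S-adenosylhomocysteine. AHCY was at 44.3, 47.0 and 51.2 TPM with siControl and at 13.2, 13.8 and 11.7 TPM with siGCDH (-1.80 ± 0.17, adjusted p = 0.00438). DDOST had -1.96 and LITAF -1.81, and the second batch gave -1.58 and -1.78. The first match of each is shown with 11 bases on either side (GRCh38, in the direction of the transcript, heptamer in capitals), at chr19:12944424-12944452 for CALR, chr3:53225670-53225698 for TKT, chr3:196051059-196051087 for TFRC, chr1:45511040-45511068 for PRDX1, chr1:20652231-20652259 for DDOST, chr16:11549248-11549276 for LITAF and chr20:34280450-34280478 for AHCY. CALR lies on the plus strand and the others on the minus strand. The heptamer was also held by genes that rose, among them MYLK, SESN2, RPS27L and SPARC, and not by HNRNPC, CCL2 or FTH1.
CALR: gattggctcacACTGAGAatgtaagaact
TKT: ctcaaagatgtACTGAGAggaggggtaaa
TFRC: gtccttttggcACTGAGAtatttattgtt
PRDX1: attaaacttgaACTGAGAccttgatgagt
DDOST: ggagatgcaacACTGAGAgccaaggggtg
LITAF: ggcagtctcaaACTGAGAagccacagttg
AHCY: gttaaggggcaACTGAGAaagaacagaga

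**Figure D5:**
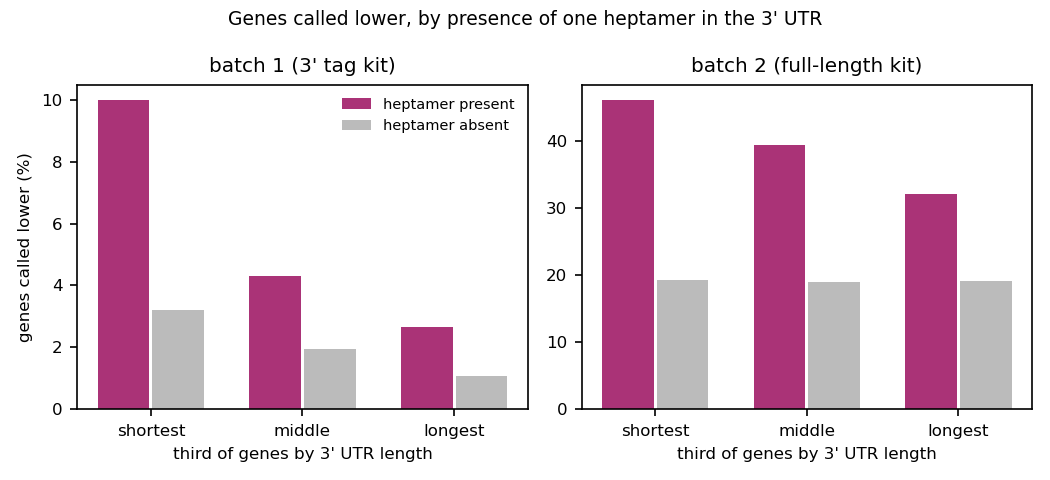
Bars give the percent of genes called lower with siGCDH (y axis, from 0, on a different scale in each panel) among genes with the heptamer present (purple) or absent (grey) in the 3′ UTR, for each of 3 classes of genes by 3′ UTR length, in batch 1 (left) and batch 2 (right). The heptamer was chosen for its share in batch 2, which is therefore no separate evidence. Batch 1 is not independent of that choice either, as the changes of the batches correlate over genes (Pearson r = 0.47). In batch 1 the share is higher with the heptamer in each class, at 10% against 3.21% in the shortest class.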

How the data were processed

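RNA was measured in 6 A375 libraries made with a 3′ tag kit (3 siControl, 3 siGCDH), beside 6 of a second batch made with a full-length kit. The authors deposited TPM per gene for each library. Cutadapt 2.3, STAR 2.7.0d, RSEM 1.3.1 and hg38 are named, per the submitters' processing notes, with neither the gene annotation nor the strandedness stated. TPM is divided by transcript length although a tag comes from the 3′ end, and RSEM shares reads among similar transcripts, so differences in level between genes are approximate. Levels were used across genes for filters, classes of level, sums, shares and the choice of genes to name.

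From these values, 5 rows of a ribosomal RNA locus were left out and the columns brought back to a common total. Symbols were found by identifier for 41209 of 60504 rows. Values of log2(TPM + 1) were fitted with limma 3.58.1 (trended eBayes; R 4.3.3, statmod 1.5.0) where the 6-library mean reached 1 TPM, and fold changes on this scale understate those of low genes. Two-sided p-values were adjusted by Benjamini-Hochberg over all genes of a fit, and an adjusted p under 0.05 is a call. The batch difference is the interaction term over 12 libraries. The fits were tested on simulated data. Sequences came from GENCODE 29 and RefSeq (GRCh38.p14), read with Python 3.11.15, numpy 2.4.6, pandas 2.3.3 and scipy 1.17.1, and plots used matplotlib 3.10.9.

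The members and the 35 gene lists were chosen with earlier results of these data known. Named were GCDH and a panel of 9 genes, the 12 largest rises and 12 largest falls (called, no overlap, a higher group of 5 TPM or more, an approved symbol of no pseudogene or clone), per list up to 4 called genes of lowest adjusted p and 2 uncalled of highest TPM, and the 8 largest called batch differences each way. Some genes that this rule names are not reported here. Lists overlap: of 89 different called members 9 are in 2 lists. Alternatives were pseudocounts of 0.1 and 5, other filters, scalings and variance models, the ribosomal RNA rows kept, both batches in 1 fit, the replicate number as a block and each library left out. A fit with 1 variance per batch was chosen after seeing the data.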

Additional observations from a re-analysis of the deposited data

Results flagged for a closer look

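The share of all deposited TPM in the 5 removed rows of a ribosomal RNA locus was 33.0% with siGCDH and 17.1% with siControl, outside the genes that the comparison describes, and 3 of the rows hold identical values in every library.

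The other results given here are genes whose response to siGCDH differed between the 2 batches by the interaction test of limma at an adjusted p under 0.05, as log2 differences of batch 1 minus batch 2. The kit differs with the batch, so the kit and the batch cannot be told apart. More negative in batch 1 were RNF166 (-3.39), the cancer-testis gene SSX2 (-2.94), the CREB coactivator CRTC2 (-2.88), the pancreatic protease gene CTRL (-2.53), ZFP36, which destabilises AU-rich mRNAs (-2.35), FLYWCH2 (-2.30), PIGO of GPI anchor synthesis (-2.25), PPM1N (-2.21) and BEND5 (-1.79). Of list members, KRT8 (-1.45), the proteasome genes PSMA5 (-0.98) and PSMB3 (-0.77), MT-ND3 (-0.61) and ALDOA (-0.49) were also more negative. CTRL had -1.31 in batch 1 and 1.22 in batch 2, and ZFP36 -1.25 and 1.10, and in batch 1 neither passed (adjusted p = 0.0639 and 0.209).

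More positive in batch 1 were the methylmalonyl-CoA epimerase gene MCEE (2.60), the antisense RNA CKMT2-AS1 (2.32), the chromatin reader L3MBTL3 (2.13), POTEE (2.05), the receptor phosphatase PTPRG (1.95), the recombination gene RAD52 (1.85), the exonuclease DIS3L2 (1.66) and METTL14 of the m6A writer (1.62). PSMD14 (1.06), PSMD2 (0.80), CCND1 (0.77), HNRNPM (0.69) and HSP90AA1 (0.38) followed among list members. HNRNPM had 0.51 in batch 1 and -0.18 in batch 2, and was called in opposite directions. PTPRG had 0.63 in batch 1, not past the test, and -1.32 in batch 2.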

How the results depend on the processing

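Against 269 higher and 219 lower genes, the counts were 151 and 115 with no filter on low values, 152 and 866 with the ribosomal RNA rows kept, 13 and 16 without the mean-variance trend, and 1759 and 1183 in a joint fit with batch 2. With the replicate number as a block they were 44 and 42. Same-numbered libraries did not deviate together (r = 0.008, -0.002 and -0.021). These values show no pairing by number but cannot exclude it, since each deviation is taken from a mean of 3 libraries. Leaving out each library gave 52 to 109 higher and 56 to 78 lower genes, from 5 libraries in place of 6. GCDH passed in the joint fit (-1.36, adjusted p = 0.0235) and in no other, where its adjusted p was 0.118 to 0.42. Of the 488 called genes, 364 were also called with the ribosomal RNA rows kept, 263 with no filter, 84 with the block, 25 without the trend and 104 to 149 without a library. With those rows kept 3 of the 488 differed in sign, and none did in the other fits.

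Of 102 named called genes, 28 were called whichever library was left out and 32 in none of these fits, and 11 were called without the trend. None of the 102 changed sign. Of the uncalled, TRIB3 was at -0.0619 with the ribosomal RNA rows kept, and DHTKD1 ran from -0.331 to 0.045 when a library was left out. Of 31 lists with a median, 12 turned from above to below 0 with those rows kept, and 9 of the 12 stayed above the median of all genes under each scaling.

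Against 110 differences between batches above 0 and 66 below, the counts were 59 and 754 with the ribosomal RNA rows kept, 29 and 18 without the trend, 18 and 8 with the replicate block, and 41 and 38 with 1 variance per batch. Median scaling gave 68 above 0 and 76 below, so the balance of directions turned round. Leaving out a library gave 15 to 196 above and 5 to 143 below, with 15 to 19 and 5 to 10 where the library was of batch 2. The causes were not tested. Genes of a few TPM are the least precise, and depth is unknown.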
